A study of Mus musculus with 4 samples.

Results

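The genes described here are 10 genes of lymphoid priming and B cell commitment, Dntt, Il7r, Satb1, Rag1, Rag2, Ikzf1, Tcf3, Ebf1, Pax5 and Notch1, chosen by symbol for their roles and not for a measured value. All 10 were found, each at 1 position, among the 27998 genes counted in single cells of mouse bone marrow. The marrow came from chimeric mice of 2 groups with 2 libraries each, Idh1-R132H and Idh1-WT, 1 library per mouse. In Idh1-R132H mice the transplanted cells carried a heterozygous Idh1-R132H allele, a form of the cytosolic isocitrate dehydrogenase that makes 2-hydroxyglutarate. In Idh1-WT mice they carried the wild-type enzyme. The cells of both groups were positive for the recombined EYFP reporter, and recombination of the reporter and of the mutant allele was induced by tamoxifen given for 5 days. Lineage-negative EYFP-positive marrow cells were sorted 2 weeks later and transplanted into irradiated hosts with no supporting marrow, and the marrow was taken 16 weeks after transplantation. Which promoter drove the recombinase, and the age of the mice, are not given in the sources used here. From each mouse 4000 cells of each of 3 sorts, total CD45.1-positive marrow, LSK cells (stem and multipotent progenitors without lineage markers, sorted for Sca1 and cKit) and LK cells (progenitors sorted for cKit without lineage markers), went into 1 tube, so the sort and the pooling can set the share of any cell type. The labels do not say whether the 2 mice of a group had separate donors, and p-values then measure only the spread between these libraries. The title of the series places its question in neutrophil production from myeloid progenitors, and the lymphoid genes below were read in the same cells.

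Stem and multipotent cells first turn towards the lymphoid branch as lymphoid-primed progenitors, which keep some myeloid potential. Commitment to the B lineage follows under a network of transcription factors in which E2A and Ikaros act early, Ebf1 specifies the B cell programme and Pax5 holds it by closing other fates. In parallel the immunoglobulin loci are cut by the Rag1 and Rag2 recombinase and joined with bases added by Dntt, the terminal deoxynucleotidyl transferase. Signals through the interleukin-7 receptor keep mouse B precursors alive and dividing, and Notch1 signals direct progenitors in the thymus to the T lineage.

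The libraries held between 40364701 and 56353466 unique molecular identifiers (UMIs, each counted once per captured RNA molecule), with a median of 7228 to 8707 UMIs per cell. After filtering, 16280 barcodes counted as cells. Idh1-R132H 1 and Idh1-WT 1 shared 345 cell barcodes, against 13 to 33 for the other pairs of libraries. Of these, 329 had in Idh1-WT 1 at most 1/5 of the UMIs they had in Idh1-R132H 1, with a median of 2.16% of the larger count. Cells whose barcode was also a cell of another library with at least 5 times the UMIs were therefore removed, 353 in all and 332 of them in Idh1-WT 1, as were 111 doublet calls, leaving 15816 cells. No call on any of the 10 genes between groups of mice or between stages changed when the shared cells were kept.

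Cells were sorted into groups by the UMIs of marker genes, none of which is 1 of the 10 genes. The 1299 stem cells carried Hlf and at least 4 of 8 stem markers with no Flt3, and the 344 lymphoid-primed progenitors carried at least 2 Flt3 UMIs and at least 2 lymphoid marker genes from a list with Gpr171, Il12a, Ccr9, Ly6d and Cd52. Cells with at least 3 Cd79a UMIs were split into 120 B precursors and 327 mature B cells. The former were set by Vpreb1, Vpreb2, Vpreb3 and Igll1, the latter by Ms4a1, MHC class II and other late genes. Vpreb3 was seen in 100% of the B precursors, but Vpreb1 in 35.8% and Igll1 in 39.2%. Of the mature B cells 49.2% also carried Vpreb3. Idh1-R132H 1 and 2 gave 312 and 310 stem cells, 92 and 113 lymphoid-primed progenitors, 21 and 27 B precursors and 82 and 69 mature B cells. Idh1-WT 1 and 2 gave 334 and 343, 83 and 56, 28 and 44, and 81 and 95 cells of the same groups. Of the lymphoid-primed progenitors 179 stood at the lower limit of Flt3, and 36 of 468 B lineage cells stood at the lower limit of Cd79a. The T cell gene Cd3e was at 0 in lymphoid-primed progenitors, B precursors and mature B cells. It was itself a marker used to keep T cells out of these groups, so this is no separate check of purity. Levels are given as CPM, the UMIs of a gene scaled to the same total of 1000000 UMIs. Ccr9 was also a dendritic marker, and cells with at least 300 CPM of the dendritic markers were kept out of the lymphoid-primed progenitors. S100a8, a neutrophil gene, stood at 576, 542, 599 and 813 CPM in stem cells, lymphoid-primed progenitors, B precursors and mature B cells. It was also a marker used to keep neutrophil lineage cells out, so the gates limited these levels. Whether they came from free RNA was not tested.

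Promoter sequences are shown for Dntt, the marker of priming, the Rag1 and Rag2 pair, and the commitment factors Ebf1 and Pax5, from 250 bases before to 50 bases after the annotated start, as given by RefSeq for GRCm38.p6. Capitals mark an E box (CAGGTG or CAGCTG, the site type bound by E2A), an Ikaros core (TGGGAA) or the Ebf1 palindrome (TCCC, any 2 bases, then GGGA), each searched on both strands.
Dntt, chr19:41029025-41029324, plus strand: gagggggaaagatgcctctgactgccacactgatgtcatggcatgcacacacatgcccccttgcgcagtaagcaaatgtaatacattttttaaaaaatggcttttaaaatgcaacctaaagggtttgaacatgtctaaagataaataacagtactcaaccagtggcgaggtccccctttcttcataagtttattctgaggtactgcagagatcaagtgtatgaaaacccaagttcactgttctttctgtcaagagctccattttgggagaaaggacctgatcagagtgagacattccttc
Rag1, chr2:101649483-101649782, minus strand: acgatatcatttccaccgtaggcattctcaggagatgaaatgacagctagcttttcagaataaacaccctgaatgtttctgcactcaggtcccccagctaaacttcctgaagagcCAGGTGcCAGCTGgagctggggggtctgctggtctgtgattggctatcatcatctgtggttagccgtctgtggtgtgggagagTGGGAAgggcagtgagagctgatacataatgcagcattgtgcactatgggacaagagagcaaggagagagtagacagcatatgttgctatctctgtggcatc
Rag2, chr2:101624462-101624761, plus strand: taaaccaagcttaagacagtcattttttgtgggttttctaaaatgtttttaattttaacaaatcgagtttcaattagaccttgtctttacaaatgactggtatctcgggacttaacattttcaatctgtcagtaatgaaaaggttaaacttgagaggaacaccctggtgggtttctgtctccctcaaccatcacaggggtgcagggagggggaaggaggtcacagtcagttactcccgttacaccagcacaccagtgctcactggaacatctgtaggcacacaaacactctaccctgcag
Ebf1, second start, chr11:44619978-44620277, plus strand: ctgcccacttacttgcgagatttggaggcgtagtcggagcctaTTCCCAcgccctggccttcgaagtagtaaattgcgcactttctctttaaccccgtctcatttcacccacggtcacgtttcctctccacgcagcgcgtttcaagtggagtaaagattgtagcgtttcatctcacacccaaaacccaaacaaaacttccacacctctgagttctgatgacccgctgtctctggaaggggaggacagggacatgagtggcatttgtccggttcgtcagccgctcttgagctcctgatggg
Pax5, chr4:44710645-44710944, minus strand: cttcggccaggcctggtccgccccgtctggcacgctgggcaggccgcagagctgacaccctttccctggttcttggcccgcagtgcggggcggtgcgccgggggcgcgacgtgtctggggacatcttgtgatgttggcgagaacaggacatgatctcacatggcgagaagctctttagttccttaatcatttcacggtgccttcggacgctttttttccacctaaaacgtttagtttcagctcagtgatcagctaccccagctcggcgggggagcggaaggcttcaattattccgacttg
The Rag1 window held 2 E boxes, with first bases at positions -135 and -128 from the start, and an Ikaros core at -52, and none of these overlapped another. The Ebf1 window held an Ikaros core at -207, and the window at the first Ebf1 start, like those of Dntt, Rag2 and Pax5, held none of the 3 motifs. Among the other genes, 3 of the 5 Satb1 windows held a match and none of those of Il7r, Ikzf1, Tcf3 and Notch1 did. Of 32851 promoters of 300 bases, 32.9% held an E box, 25.6% an Ikaros core and 0.904% an Ebf1 palindrome. The matches describe these letters and were not tested as binding sites.

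**Figure D1:**
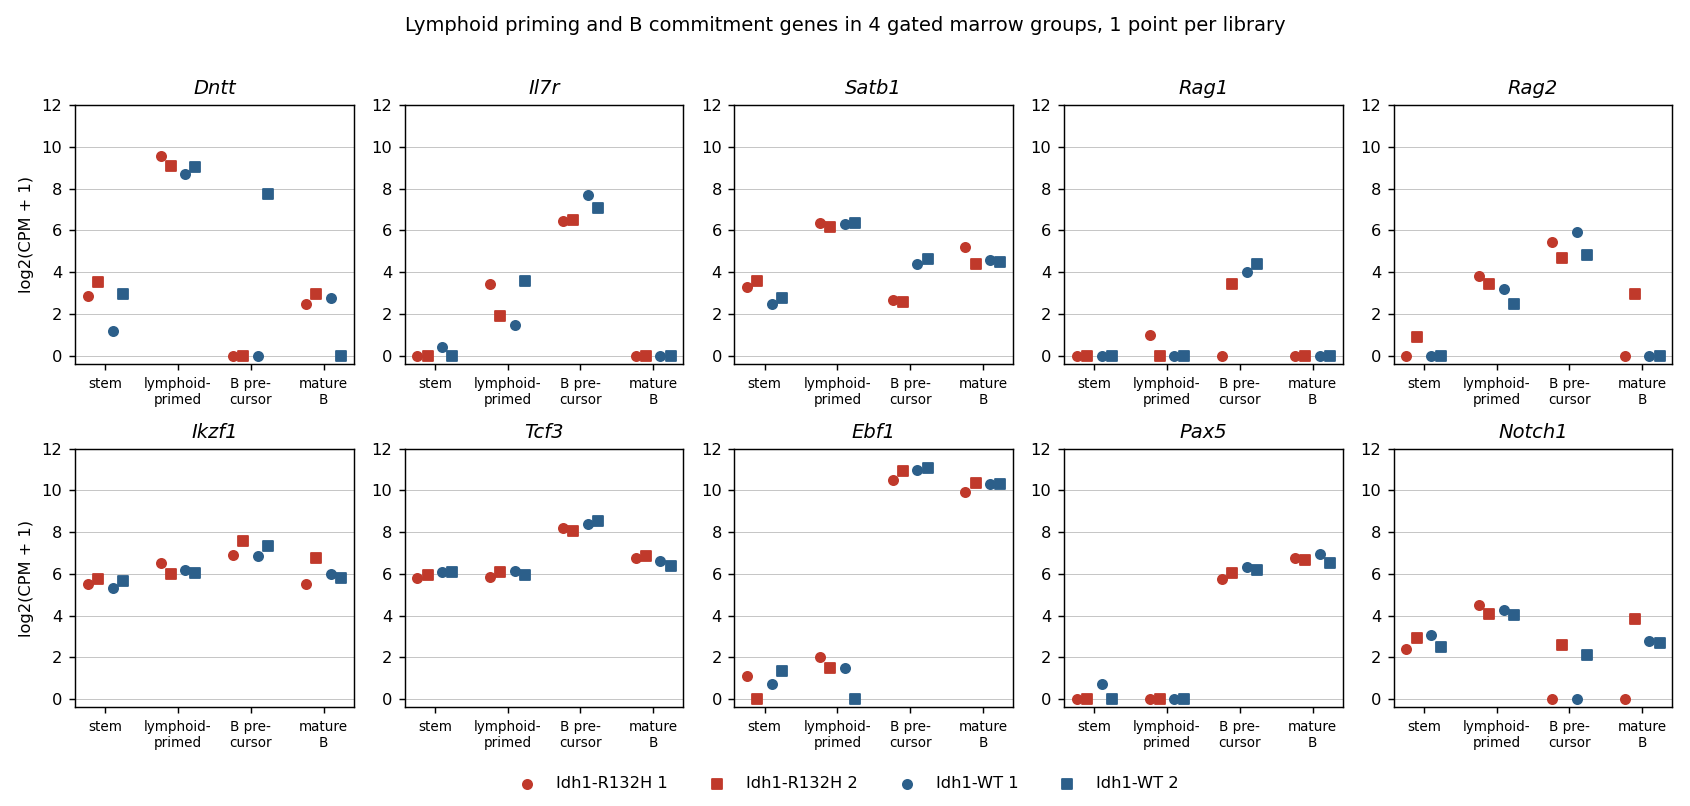
Levels of the 10 genes as log2(CPM + 1) in stem cells, lymphoid-primed progenitors, B precursors and mature B cells, 1 point per library (circles and squares for replicates 1 and 2, red for Idh1-R132H and blue for Idh1-WT). Dntt and Satb1 peak in lymphoid-primed progenitors, Il7r, Rag1, Rag2, Ikzf1 and Tcf3 in B precursors, and Ebf1 and Pax5 are near 0 until the B precursors.

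Dntt (chr19:41029275-41059525, plus strand, protein-coding) marked the step into lymphoid priming. In Idh1-R132H 1 and 2 stem cells held 16 and 24 Dntt UMIs and in Idh1-WT 1 and 2 they held 4 and 18, between 1.28 and 10.4 CPM. Lymphoid-primed progenitors held 764 and 608 UMIs in Idh1-R132H 1 and 2, against 468 and 344 in Idh1-WT 1 and 2, between 421 and 759 CPM. Every library was higher in lymphoid-primed progenitors than in stem cells and the ranges did not overlap. Over the 4 libraries the pooled level was 96.2 times that of stem cells, with an exact 95% counting interval of 74.8 to 126 (intervals here cover counting error only). In B precursors Dntt was at 0 in Idh1-R132H 1, Idh1-R132H 2 and Idh1-WT 1, and its 63 UMIs all came from Idh1-WT 2, where 8 of 44 cells carried them and the 3 richest cells held 74.6%. Mature B cells held 3 UMIs in all. Dntt was not uniform among lymphoid-primed progenitors either: 217 of 344 cells carried a UMI, and the richest cell of a library held between 45 and 64. Each cell thinned to 1000 UMIs, 27.3% of lymphoid-primed progenitors carried Dntt (exact 95% interval 22.7 to 32.4%), against 0.385% of stem cells and 0.226% of erythroid cells, a type that should lack it. Unthinned, the shares were 63.1% of lymphoid-primed progenitors and 3.46% of stem cells. Dendritic cells also carried Dntt, at 55.4 ± 21.5 CPM (SD over 4 libraries) and in 6.45% of 62 thinned cells (1.79 to 15.7%). Barcodes with at most 50 UMIs had 32.5 to 36.2 CPM of Dntt, above the stem cell level and far under that of lymphoid-primed progenitors.

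Il7r (chr15:9505788-9530176, minus strand), the alpha chain of the interleukin-7 receptor, appeared at trace level in lymphoid-primed progenitors and in quantity in B precursors. Stem cells held 1 UMI over the 4 libraries. Lymphoid-primed progenitors held 10 and 3 UMIs in Idh1-R132H 1 and 2, against 2 and 7 in Idh1-WT 1 and 2, in 15 of 344 cells. That is 1.80 to 10.7 CPM by library, a range that overlapped the 1.38 to 3.34 CPM of barcodes with at most 50 UMIs. B precursors held 16 and 18 UMIs in Idh1-R132H 1 and 2, against 41 and 40 in Idh1-WT 1 and 2, which is 85.4, 89.0, 204 and 135 CPM, in 60 of 120 cells. The pooled B precursor level was 22.9 times that of lymphoid-primed progenitors (14.5 to 38.0). No Il7r UMI was seen in 327 mature B cells, at least 31.4-fold lower than in B precursors with a floor of 3 UMIs over the group. Cells gated as dendritic (110 ± 38.5 CPM) and as T or NK (76.4 ± 34.2 CPM, SD over 4 libraries) carried Il7r at levels that overlapped those of B precursors (128 ± 55.4 CPM). Whether the dendritic group, gated in part on Ccr9, held lymphoid progenitors was not tested.

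Satb1 (chr17:51736187-51833290, minus strand), a chromatin organiser needed for early lymphoid and T cell development, was highest on average in lymphoid-primed progenitors among the 13 gated groups. It stood at 81.5 and 69.7 CPM there in Idh1-R132H 1 and 2 and at 77.4 and 79.7 CPM in Idh1-WT 1 and 2, against 4.48 to 10.9 CPM in stem cells. That is 10.6 times the pooled stem cell level (8.20 to 13.8). In B precursors 13 UMIs were seen, 5.22 times below lymphoid-primed progenitors (3.01 to 9.92). Barcodes with at most 50 UMIs, which hold free RNA, had 9.46 to 18.7 CPM of Satb1. The levels of stem cells and B precursors (13.5 ± 9.75 CPM) were thus not clearly above free RNA. T or NK cells, at 66.1 ± 24.7 CPM, did not stand apart from lymphoid-primed progenitors, at 77.1 ± 5.19 CPM. Notch1 (chr2:26457903-26516663, minus strand), the receptor that directs progenitors to the T lineage, also had its highest mean of the 4 stages in lymphoid-primed progenitors. Lymphoid-primed progenitors had 21.9 and 16.1 CPM in Idh1-R132H 1 and 2 and 18.0 and 15.3 CPM in Idh1-WT 1 and 2, against 4.27 to 7.35 CPM in stem cells, 3.14 times the pooled stem cell level (2.19 to 4.49). Only 2 Notch1 UMIs were seen in B precursors, against 70 in lymphoid-primed progenitors. Notch1 was not restricted to this branch, since neutrophil lineage cells had 23.4 ± 2.97 and monocytes 17.0 ± 1.51 CPM.

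Rag1 (chr2:101638282-101649501, minus strand) and Rag2 (chr2:101624718-101632529, plus strand), the 2 subunits of the V(D)J recombinase, face each other 5752 bases apart. Rag1 was rare: 18 UMIs in 15816 cells, 11 of them (61.1%) in B precursors, with 0 and 2 in Idh1-R132H 1 and 2 and 3 and 6 in Idh1-WT 1 and 2. Lymphoid-primed progenitors held 1 Rag1 UMI, stem and mature B cells none. Rag2 was seen at both steps. Lymphoid-primed progenitors held 13 and 11 Rag2 UMIs in Idh1-R132H 1 and 2 and 9 and 3 in Idh1-WT 1 and 2, against 2 over all stem cells, 49.2 times the stem cell level with a wide counting interval (12.7 to 422). B precursors held 8 and 5 Rag2 UMIs in Idh1-R132H 1 and 2 and 12 and 8 in Idh1-WT 1 and 2, 4.02 times the level of lymphoid-primed progenitors (2.43 to 6.64). Mature B cells held 1 Rag2 UMI, 27.1 times below B precursors (4.53 to 1101). The 30 B precursors with no UMI of 6 cell cycle genes carried 7 Rag1 UMIs in 5 cells, against 3 Rag1 UMIs in 3 of the 82 cycling B precursors. Rag2 had 4 UMIs in 3 of the 30 cells, against 29 UMIs in 22 of the 82. Too few non-cycling cells per library (5 to 13) were present for a test. A cell with few UMIs more easily shows none of the 6 genes, and the part of depth was not tested.

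Ikzf1 (chr11:11685003-11772926, plus strand), which encodes Ikaros, and Tcf3 (chr10:80409514-80433647, minus strand), which encodes the E2A proteins E12 and E47, were present at every stage and stood highest in B precursors. Ikzf1 ranged over 39.6 to 52.1 CPM in stem cells, 62.6 to 89.4 in lymphoid-primed progenitors, 115 to 193 in B precursors and 45.2 to 108 in mature B cells. It was 1.59 times higher in lymphoid-primed progenitors than in stem cells (1.37 to 1.85) and 2.02 times higher in B precursors than in lymphoid-primed progenitors (1.63 to 2.50). Tcf3 had 57.6 to 70.2 CPM in lymphoid-primed progenitors and 55.5 to 67.9 CPM in stem cells, ranges that overlapped (ratio 1.03, 0.884 to 1.19). It reached 293 and 262 CPM in B precursors of Idh1-R132H 1 and 2 and 334 and 372 CPM in those of Idh1-WT 1 and 2, 4.98 times the level of lymphoid-primed progenitors (4.19 to 5.93). Mature B cells had 81.3 to 114 CPM, 3.20 times below B precursors. Neither gene belongs to lymphoid cells alone. Erythroid cells had 111 ± 9.54 CPM of Tcf3, and dendritic cells had 134 ± 38.0 CPM of Ikzf1, close to B precursors at 146 ± 37.3. Barcodes with at most 50 UMIs, which hold free RNA, had 54.7 to 69.0 CPM of Tcf3 and 31.3 to 56.5 of Ikzf1, near the CPM of stem cells, where 37.1% and 29.7% of cells carried a Tcf3 and an Ikzf1 UMI at a median of 7035 UMIs per cell.

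Ebf1 (chr11:44617317-45008091, plus strand) and Pax5 (chr4:44524757-44710487, minus strand) are the specification and commitment factors. Among the 13 gated groups their mean levels stood highest in B precursors and mature B cells. Ebf1 had 9 UMIs in all stem cells and 3, 2, 2 and 0 in lymphoid-primed progenitors of Idh1-R132H 1 and 2 and Idh1-WT 1 and 2. B precursors had 1441 and 1962 CPM in Idh1-R132H 1 and 2 and 1997 and 2139 CPM in Idh1-WT 1 and 2, and every one of the 120 cells carried it. That is 1066 times the pooled level of lymphoid-primed progenitors (516 to 2656). Barcodes with at most 50 UMIs had 12.1 to 16.7 CPM of Ebf1, above lymphoid-primed progenitors and far under B precursors. Mature B cells kept it, with 973 to 1305 CPM in 294 of 327 cells. Pax5 was at 0 in lymphoid-primed progenitors of all 4 libraries, and 2 UMIs were seen in stem cells. B precursors held 10 and 13 Pax5 UMIs in Idh1-R132H 1 and 2 and 16 and 21 in Idh1-WT 1 and 2, 53.4 to 79.7 CPM, at least 87.8-fold higher than lymphoid-primed progenitors with a floor of 3 UMIs. Mature B cells had 109 and 101 CPM in Idh1-R132H 1 and 2 and 122 and 92.2 CPM in Idh1-WT 1 and 2. A Pax5 UMI was seen in only 38 of 120 B precursors and 63 of 327 mature B cells. Thinned to 1000 UMIs, Ebf1 was seen in 89.0% of B precursors (81.9 to 94.0%), 70.9% of mature B cells (65.7 to 75.8%) and no erythroid cell, and Pax5 in 3.39% (0.931 to 8.45%) of B precursors and 10.7% (7.57 to 14.6%) of mature B cells.

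The steps between stages were tested on UMIs summed per library and stage with edgeR's quasi-likelihood test, the library as a block, and adjusted over all 5621 genes that passed the filter on low counts. Of the 10 genes 8 passed that filter, and Rag1 and Notch1 did not. A gene that passed through 1 high stage alone had to differ, so the counts describe these genes and support nothing further. In lymphoid-primed progenitors against stem cells 25.5% of all tested genes were called at an adjusted p of at most 0.05, and 5 of the 8 were called, all higher (12.5% of all genes were called higher and 13.1% lower). The log2 differences were 6.56 for Dntt (SE 0.48, adjusted p 3.6e-06 by edgeR), 4.86 for Rag2 (SE 0.61), 4.80 for Il7r (SE 0.77), 3.38 for Satb1 (SE 0.18) and 0.67 for Ikzf1 (SE 0.13), each higher in 4 of 4 libraries. Tcf3 (0.06, SE 0.12), Ebf1 (1.00, SE 0.68) and Pax5 (-1.32, SE 1.26) did not pass. In B precursors against lymphoid-primed progenitors 37.9% of all genes (17.6% higher, 20.3% lower) and 8 of the 8 were called. Ebf1 (9.90, SE 0.18), Pax5 (9.08, SE 0.70, a fitted value that depends on a group at 0), Il7r (4.41, SE 0.33), Tcf3 (2.27, SE 0.14), Rag2 (2.09, SE 0.41) and Ikzf1 (0.99, SE 0.18) were higher in B precursors. Dntt (-3.06, SE 0.60, adjusted p 0.0025 by edgeR) and Satb1 (-2.40, SE 0.34) were lower, in 4 of 4 libraries each. The fitted Dntt value rests on Idh1-WT 2, the 1 library with Dntt UMIs in B precursors, and was -12.20 without it.

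In mature B cells against B precursors 33.5% of all genes (18% higher, 15.5% lower) and 6 of the 8 were called. Il7r, Rag2 (log2 difference -4.52, SE 0.92), Tcf3 (-1.44, SE 0.18), Ikzf1 (-0.97, SE 0.26) and Ebf1 (-0.42, SE 0.09) were lower in mature B cells, and Pax5 was higher (0.87, SE 0.28, adjusted p 0.012 by edgeR), each in 4 of 4 libraries. The Rag2 value rests on 1 UMI in mature B cells of Idh1-R132H 2 and was -8.49 without that library. The Pax5 call was lost with library totals alone (0.65, adjusted p 0.0677), with no filter on low counts (0.74, adjusted p 0.0594), with clusters in place of gates (0.38, adjusted p 0.269) and without Idh1-R132H 1 (0.78, adjusted p 0.0644), and the Ebf1 call was lost with DESeq2 (-0.45, adjusted p 0.0525). With the usual scaling 1012 genes were higher and 870 lower in mature B cells. With library totals alone 751 were higher and 1212 lower, and the median of all genes moved to -0.10 from 0.12 on the log2 scale. Median UMIs per cell were 1719 in mature B cells and 4504 in B precursors. With no filter, Notch1 was higher in lymphoid-primed progenitors than in stem cells (1.65, SE 0.29) and lower in B precursors than in lymphoid-primed progenitors (-2.97, SE 0.76), and Rag1 was higher in B precursors than in lymphoid-primed progenitors (4.76, SE 1.25, adjusted p 0.0016 by edgeR).

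**Figure D2:**
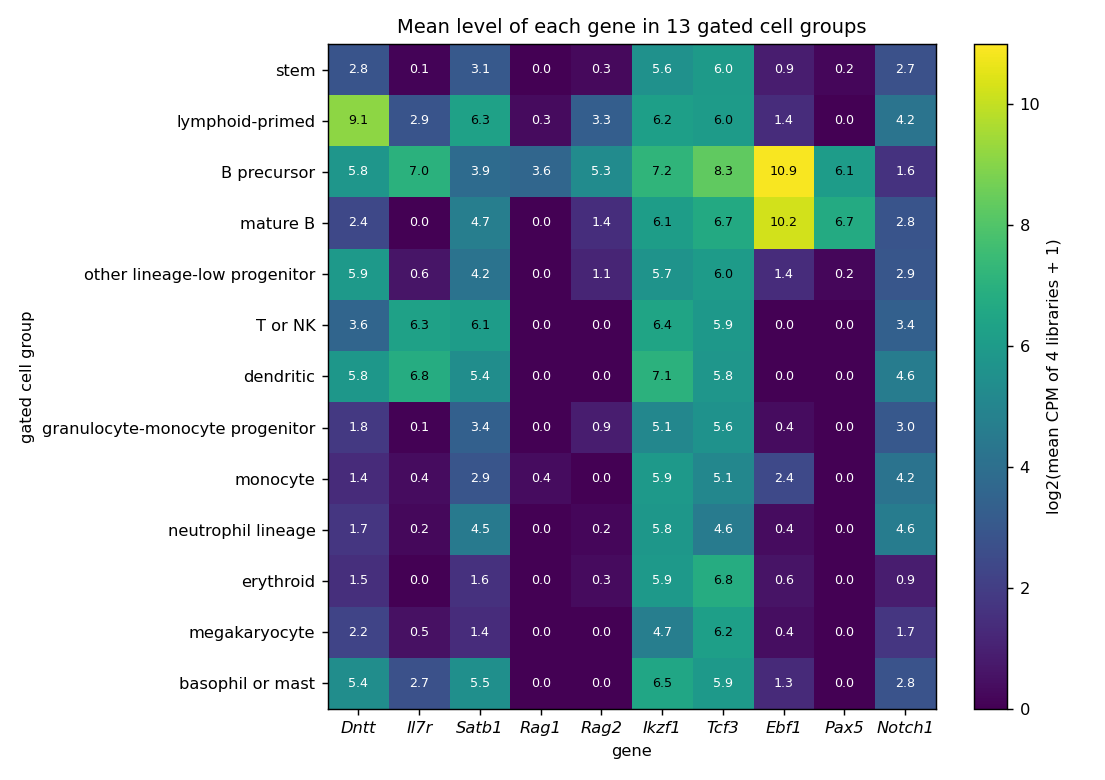
Mean level of each of the 10 genes, as log2(mean CPM of 4 libraries + 1), in 13 gated groups of marrow cells (rows). Dntt reads 9.1 in lymphoid-primed progenitors, Ebf1 reads 10.9 in B precursors and 10.2 in mature B cells, and Ikzf1 and Tcf3 are above 4 in every row.

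The UMI shares below are over the 15816 cells used, which the sort enriched for LSK and LK cells, and are not those of unsorted marrow. Of the 5374 Dntt UMIs, 40.6% lay in the lymphoid-primed progenitors and 42.4% in the other lineage-low progenitors. The latter were a far larger group, in which the level was 59.4 ± 14.2 CPM. Il7r UMIs lay in B precursors for 38.3% of 300. Ebf1 lay in B precursors for 53.3% of its 3191 UMIs and in mature B cells for 27.1%, and Pax5 for 34.1% and 43.8% of its 176. Ungated cells held 12.9% of the Ebf1 UMIs and 13.1% of the Pax5 UMIs. Across the 13 gated groups, Ebf1 and Pax5 had a Pearson correlation of 0.985 in log2(CPM + 1), a description over groups that share their libraries. Of 7405 genes that were neither markers nor among the 10, the closest to Ebf1 was Gm43291 (0.99) followed by Pou2af1 (0.99), a B cell coactivator gene, and Gm43291 was also the closest to Pax5 (0.998). Rag1 was closest to Gfra1 (0.996) and Rag2 to Tmprss3 (0.90), and Gfra1 was also second for Rag2 (0.89). Rag1 had only 18 UMIs in all cells used, 11 of them in B precursors, so its correlations rest on few counts in mainly that group. Dntt was closest to Sstr2 (0.81) and Slc16a11 (0.76), Satb1 to Tespa1 (0.82) and Rassf5 (0.81), and Il7r to Dda1 (0.91) and Atp1b1 (0.88). Tcf3 was closest to Fip1l1 (0.93) and Nol7 (0.92), Ikzf1 to Tubb2b and Atp1b1 (0.83 each) and Notch1 to Dhrs7 (0.89) and Myo1f (0.87).

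Within lymphoid-primed progenitors Il7r, Rag2, Satb1 and Notch1 were higher in the cells that carried Dntt. The 217 cells with a Dntt UMI held all 22 Il7r UMIs and 31 of 36 Rag2 UMIs, and the 127 cells without one held 0 and 5. Satb1 was 94.8 ± 14.0 CPM in cells with Dntt and 43.0 ± 13.2 CPM in cells without, and Notch1 was 20.8 ± 3.25 against 11.7 ± 4.91 CPM (SD over 4 libraries). Both were higher with Dntt in every library. Ikzf1 was 79.3 ± 16.3 CPM in cells with Dntt and 61.3 ± 10.8 CPM in cells without, and Tcf3 was 61.6 ± 4.09 against 67.4 ± 11.7 CPM, with overlap between libraries for both. Ebf1 had 5 UMIs with Dntt and 2 without, and Pax5 had none in either. Cells with Dntt had a median of 10479.5 to 12934.5 UMIs by library and cells without it 8056 to 13128, and the part of depth was not tested. These splits of cells within a library are a description and carry no test.

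**Figure D3:**
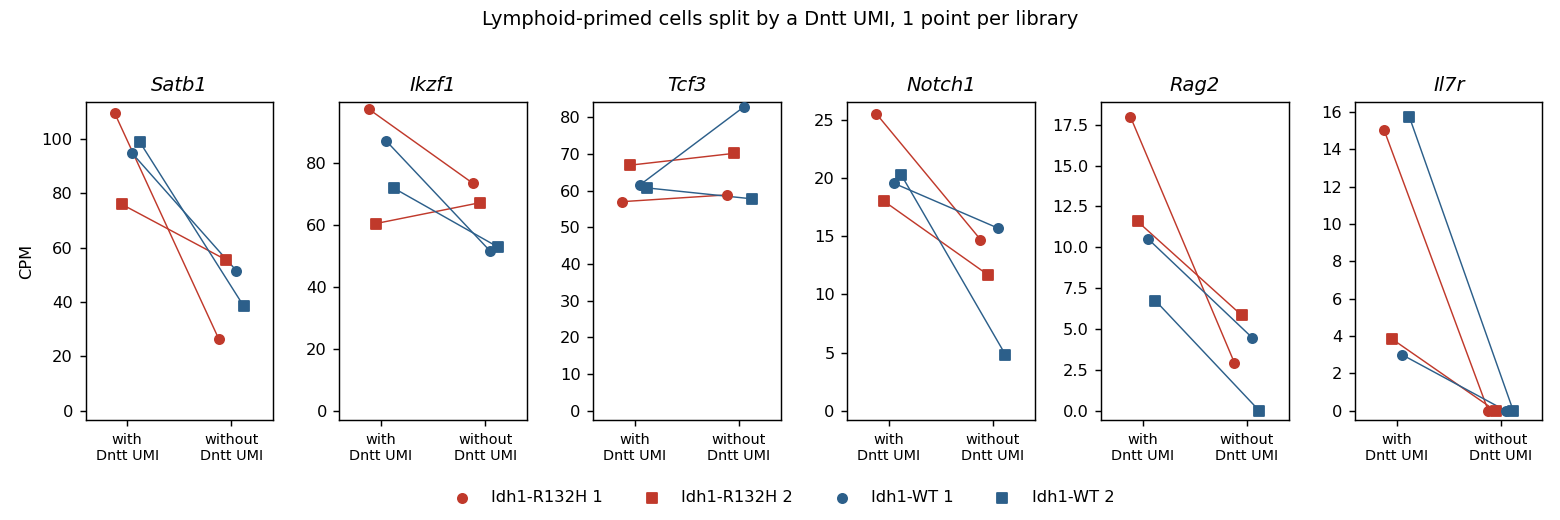
Levels in CPM of 6 of the genes in lymphoid-primed progenitors with a Dntt UMI (left of each panel) and without (right), with 1 line per library. The lines of Satb1, Notch1, Rag2 and Il7r fall from left to right in all 4 libraries, and those of Ikzf1 and Tcf3 do not all run the same way.

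The genes around these 10 in their pathways were read from 5 lists. Of 27 early B cell genes tested, 8 were higher and 2 lower in lymphoid-primed progenitors than in stem cells, with a median log2 difference of 0.33 against -0.00 over all genes, of which 12.5% were called higher and 13.1% lower. Irf8, a lymphoid and myeloid transcription factor gene, led with 3.60 (SE 0.17), followed by Blnk, a B cell adaptor gene, with 3.32 (SE 0.70), Cd93 with 0.72 (SE 0.13) and Mef2c with 0.57 (SE 0.09). In B precursors against lymphoid-primed progenitors 17 were higher and 5 lower, with a median of 2.82 against -0.04 over all genes, of which 17.6% were called higher and 20.3% lower. Pou2af1 (9.20, SE 0.39), Blnk (5.67, SE 0.28) and Cd72 (2.82, SE 0.14) rose there beside Ebf1 and Pax5, and so did Id3 (10.07, SE 0.54), an inhibitor of E proteins whose fitted value rests on lymphoid-primed progenitors at 0. In mature B cells against B precursors 14 were higher, among them Bcl11a (1.75), Mef2c (1.64) and Ets1 (1.57), and 8 lower, among them Myb (-2.29), with a median of 0.73 against 0.12 over all genes, of which 18% were called higher and 15.5% lower.

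The genes of the Il7r and Notch1 pathways were read in the same fits. Of 14 genes of interleukin-7 receptor signalling tested, 1 was higher and 9 lower in lymphoid-primed progenitors than in stem cells, against 12.5% and 13.1% of all genes. The survival gene Bcl2 rose (1.19, SE 0.14), while Socs2 (-3.53, SE 0.37), Pim1 (-0.62, SE 0.10) and Jak1 (-0.70, SE 0.11) fell. In B precursors against lymphoid-primed progenitors 2 were higher and 7 lower, against 17.6% and 20.3% of all genes. Ccnd3, a cyclin gene, rose (3.19, SE 0.10), and Bcl2 (-3.66, SE 0.42), Myc (-1.82, SE 0.23) and Crlf2 (-1.46, SE 0.25) fell. In mature B cells against B precursors 6 were higher and 2 lower, against 18% and 15.5% of all genes, with Bcl2 (4.48), Il2rg (2.68) and Jak1 (2.18) up and Ccnd3 (-2.97) down. The medians of this list at the 3 steps were -0.43, -0.63 and 1.21, against -0.00, -0.04 and 0.12 over all genes. Of 11 Notch pathway genes, read against the same shares of all genes, none rose and 4 fell at the first step, Gata3 (-1.56), Adam10 (-0.73), Mfng (-0.46) and Hes1 (-2.83). At the second, Hes1 rose (5.69, SE 0.68) and Notch2 (-3.68, SE 0.53), Mfng (-2.37) and Gata3 (-6.22) fell, and at the third 6 rose, Notch2 (5.09, SE 0.50) among them, and none fell. The medians of the Notch list were -0.28, -0.24 and 0.85.

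Of 6 genes tested that help the Rag proteins cut or join the ends after them, 4 were higher in B precursors than in the stages before and after. Over all genes 12.5%, 17.6% and 18% were called higher and 13.1%, 20.3% and 15.5% lower at the 3 steps. At the step before, 3 were higher in lymphoid-primed progenitors than in stem cells, Xrcc6 (0.93, SE 0.13), which encodes Ku70, H2afx (0.45, SE 0.10) and Hmgb1 (0.40, SE 0.06). In B precursors 4 were higher than in lymphoid-primed progenitors, Hmgb1 (1.34), H2afx (1.31), Hmgb2 (1.24) and Xrcc6 (1.15), and the same 4 were lower in mature B cells, with log2 differences of -2.24, -2.20, -2.58 and -2.39. Cycling cells, those with at least 2 UMIs of 6 cell cycle genes, made up 7.25 to 8.64% of mature B cells and 59.3 to 75.0% of B precursors by library, and the part of this in the result was not tested. Of 13 Ikaros family and chromatin partner genes, 2 rose and 2 fell at each of the first 2 steps and 1 rose and 4 fell at the third, shares near those of all genes at the first 2 steps. Mta3 (0.84, SE 0.13) rose and Ikzf2 (-0.55, SE 0.15) fell in lymphoid-primed progenitors against stem cells, and Ikzf2 had no UMI in B precursors.

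**Figure D4:**
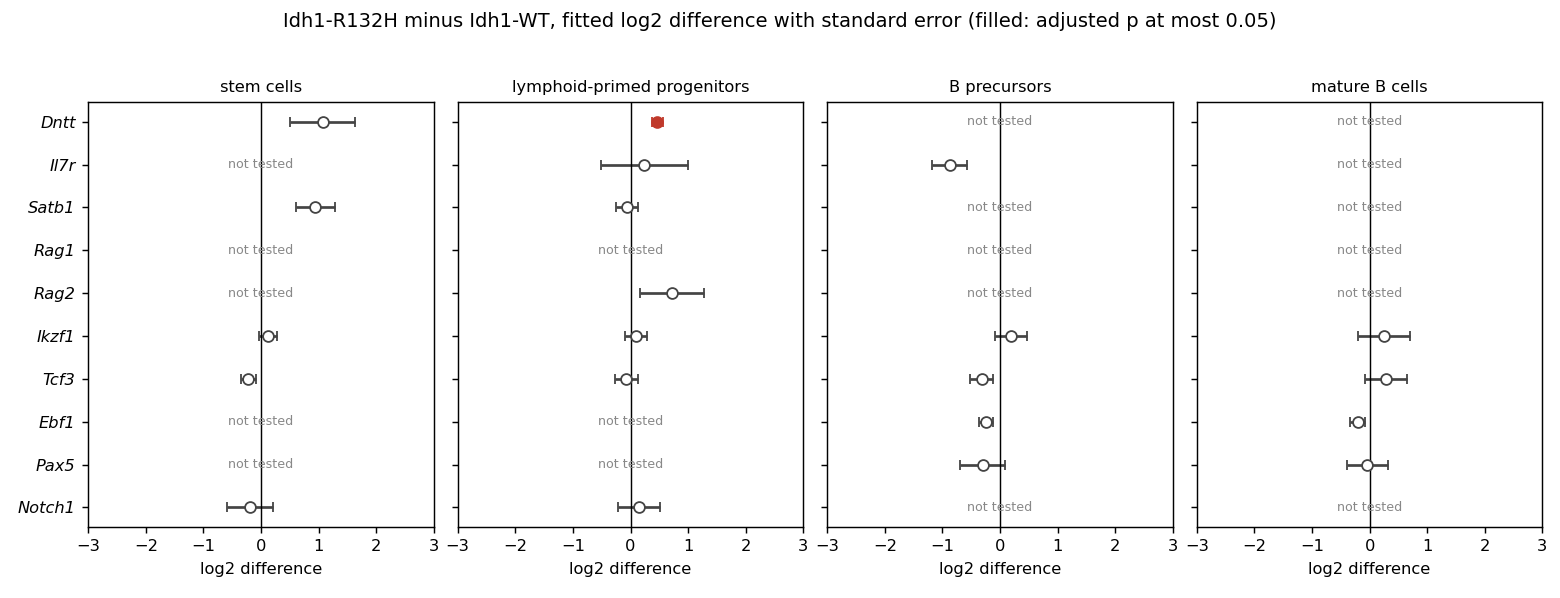
Fitted log2 difference of Idh1-R132H minus Idh1-WT with its standard error for each of the 10 genes in stem cells, lymphoid-primed progenitors, B precursors and mature B cells. Dntt in lymphoid-primed progenitors (0.47) is the only filled point, with an adjusted p of at most 0.05, and genes under the filter on low counts are marked as not tested.

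Idh1-R132H and Idh1-WT were compared within each group of cells by the same test, with 2 libraries each. In lymphoid-primed progenitors 7 of the 10 genes were tested and 1 was called, against 0.223% of all 7181 genes (16 genes). This was Dntt, at 759 and 543 CPM in Idh1-R132H 1 and 2, against 421 and 527 CPM in Idh1-WT 1 and 2, a log2 difference of 0.47 (SE 0.09, adjusted p 0.00061 by edgeR). The groups did not overlap, but Idh1-R132H 2 and Idh1-WT 2 lay close together. The call was lost with DESeq2 (0.45, SE 0.27, adjusted p 1.00), which called no gene, without Idh1-R132H 1 (0.23, adjusted p 0.948) and without Idh1-WT 1 (0.32, adjusted p 0.464). Where a library is left out, its group has 1 library, which is assumed to vary like the 2 libraries of the other group. Counting Dntt-positive cells gave 58 of 92 and 74 of 113 in Idh1-R132H 1 and 2, against 48 of 83 and 37 of 56 in Idh1-WT 1 and 2. Cells with a UMI of Xist, transcribed in female cells, made up 48.9% and 47.8% of this group in Idh1-R132H 1 and 2, against 90.4% and 67.9% in Idh1-WT 1 and 2, and cycling cells 72.8% and 60.2%, against 75.9% and 75.0%. The part of either in the Dntt difference was not tested.

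The other genes tested in lymphoid-primed progenitors did not pass. Their log2 differences were 0.72 for Rag2 (SE 0.56), 0.24 for Il7r (SE 0.76), 0.14 for Notch1 (SE 0.37), 0.10 for Ikzf1 (SE 0.19), -0.06 for Satb1 (SE 0.19) and -0.07 for Tcf3 (SE 0.20). In stem cells none of 5 tested was called by edgeR, 1 had an unadjusted p under 0.05, DESeq2 called none, and 0.0512% of 9764 genes were called. Satb1 was 8.93 and 10.9 CPM in Idh1-R132H 1 and 2, against 4.48 and 5.72 CPM in Idh1-WT 1 and 2, groups that did not overlap, with a log2 difference of 0.94 (SE 0.34, unadjusted p 0.0106, adjusted p 0.897 by edgeR). Dntt differed by 1.07 (SE 0.56) on counts of 16 and 24 UMIs against 4 and 18, and without Idh1-WT 2 its difference was 2.63 (adjusted p 0.0434 by edgeR), set against the 4 UMIs of Idh1-WT 1 alone, with the spread taken from the 2 Idh1-R132H libraries.

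In B precursors 5 of the genes were tested and none was called by edgeR, 2 had an unadjusted p under 0.05, DESeq2 called none, and 0.152% of 2631 genes were called. Il7r was lower in both Idh1-R132H libraries than in either Idh1-WT library, at 85.4 and 89.0 CPM against 204 and 135 CPM, with a log2 difference of -0.88 (SE 0.30, unadjusted p 0.0077, adjusted p 0.318 by edgeR). Il7r-positive cells numbered 10 of 21 and 11 of 27 in Idh1-R132H 1 and 2, against 18 of 28 and 21 of 44 in Idh1-WT 1 and 2. Ebf1 differed by -0.24 (SE 0.11, unadjusted p 0.0465, adjusted p 0.568 by edgeR), with 1441 and 1962 CPM in Idh1-R132H 1 and 2 and 1997 and 2139 CPM in Idh1-WT 1 and 2. Pax5 (-0.30, SE 0.39) and Ikzf1 (0.19, SE 0.28) lay within their errors. Tcf3 (-0.32, SE 0.19) was lower in both Idh1-R132H libraries than in either Idh1-WT library and was not called. Dntt, at 0 and 0 UMIs in Idh1-R132H 1 and 2 and at 0 and 63 in Idh1-WT 1 and 2, was under the filter, and without Idh1-WT 1 the fit called it lower in Idh1-R132H on the 63 UMIs of Idh1-WT 2 alone. Satb1 had 1 and 1 UMI in Idh1-R132H 1 and 2, against 4 and 7 in Idh1-WT 1 and 2. In mature B cells 4 were tested, none was called by edgeR or by DESeq2 or had an unadjusted p under 0.05, and 0.976% of 2254 genes were called. The differences were 0.28 for Tcf3 (SE 0.36), 0.25 for Ikzf1 (SE 0.45), -0.04 for Pax5 (SE 0.36) and -0.21 for Ebf1 (SE 0.13).

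In the other 9 gated groups no member of the list was called by edgeR or DESeq2 in 32 tests, 6 had an unadjusted p under 0.05, and the share of genes called was 0.103% in other lineage-low progenitors, 0.46% in granulocyte-monocyte progenitors, 0.408% in monocytes, 0.115% in erythroid cells, 0.206% in megakaryocytes, 0.304% in basophil or mast cells and 0% in T or NK, dendritic and neutrophil lineage cells. In the other lineage-low progenitors, Satb1 was 17.5 and 22.6 CPM in Idh1-R132H 1 and 2, against 14.5 and 15.4 CPM in Idh1-WT 1 and 2 (0.43, SE 0.14, adjusted p 0.522 by edgeR). Rag2 had 5 and 7 UMIs there in Idh1-R132H 1 and 2, against 19 and 14 in Idh1-WT 1 and 2 (-1.54, SE 0.50, adjusted p 0.493 by edgeR), and Dntt differed by -0.40 (SE 0.25). Without Idh1-WT 1, with Idh1-WT 2 as the single Idh1-WT library and the spread taken from the 2 Idh1-R132H libraries, the Dntt difference there was -0.61 (adjusted p 1.3e-06 by edgeR) and that of Ebf1 was -2.16 (adjusted p 0.0077 by edgeR). In basophil or mast cells all Dntt UMIs came from 1 cell each of Idh1-WT 1 and Idh1-WT 2, with 9 and 17. A test of the difference of the genotype effect between adjacent stages called none of the 10 genes with edgeR or DESeq2, while 0.0758%, 0% and 0.387% of all genes were called at the 3 steps. The nearest to a call was Satb1, whose effect in lymphoid-primed progenitors was lower than that in stem cells by -1.01 (SE 0.39, unadjusted p 0.0094, adjusted p 0.715 by edgeR). In the same test 1 of 4 genes tested from the list for V(D)J joining was called, with a higher genotype effect in mature B cells than in B precursors. Of the genes in the 5 lists, Pim1, a kinase gene induced by cytokine signals, was the only one called between Idh1-R132H and Idh1-WT within any of the 4 stages. It was higher in Idh1-R132H in lymphoid-primed progenitors (0.59, SE 0.14, adjusted p 0.022 by edgeR) and in mature B cells (1.61, SE 0.38, adjusted p 0.025 by edgeR). Pim1 stood at 184 and 157 CPM in lymphoid-primed progenitors of Idh1-R132H 1 and 2, against 124 and 95.1 CPM in Idh1-WT 1 and 2, and at 226 and 108 CPM in mature B cells of Idh1-R132H 1 and 2, against 63.8 and 48.8 CPM in Idh1-WT 1 and 2. Both Pim1 calls were lost with DESeq2, which called 0 genes in either group of cells, and that in mature B cells also with clusters and with the stricter gate, which called 0 genes there.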

How the data were processed

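UMI counts per gene and cell barcode were deposited by the authors as raw 10x matrices. The submitters' processing notes list Cell Ranger 4.0.0, Seurat and the builds GRCm38 and mm10, with no role given. The protocols give a 10x 3′ version 2 library per mouse. No value was normalized before deposit. A barcode counted as a cell from 500 UMIs and 200 genes upwards, unless over 10% of its UMIs were mitochondrial. Shared barcodes and Scrublet doublet calls (0.682% of cells) were removed. Reads of a gene and an overlapping antisense gene cannot be told apart here, and 3′ counts make levels of different genes incomparable, so none are compared.

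The 10 genes, the marker and pathway lists and the tests were chosen with earlier results of these data known, and the gate limits were set after marker distributions were seen. Immunoglobulin genes were not used here, and a few genes that the rules below would name are not reported here. UMIs were summed per library and cell group of at least 10 cells and tested with edgeR 4.0.16 in R 4.3.3 (quasi-likelihood, TMM factors, filterByExpr, Benjamini-Hochberg over all genes, adjusted p at most 0.05). Stage comparisons used 4 groups of cells in 4 libraries with the library as a block and left out the gate markers. Named genes were the 10 in every comparison, up to 4 genes per pathway list with the smallest p, and the 2 most similar genes over gated groups among those with at least 20 CPM in 1 group. DESeq2 1.42.0, other scalings, filters, gates, clusters and left-out libraries were alternatives. The test was checked on counts simulated with a fixed spread that was not taken from these data. A log2 difference of 1 between groups of mice was recovered for 53.6% of changed genes in stem cells and 52.6% in lymphoid-primed progenitors. In B precursors and mature B cells the shares were 40.4% and 35.3%. A log2 difference of 2 was recovered for 88.9 to 94.7% in these 4 groups of cells. Promoters came from RefSeq (GRCm38.p6), gene positions from GENCODE vM21, which matched 27645 of 27998 features (98.7%). Libraries held 40364701 to 56353466 UMIs, and 3 UMIs in 1 library came to 13.6 to 20.2 CPM in mature B cells. Bounds on a fold against a group at 0 used 3 UMIs over the pooled group.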

Additional observations from a re-analysis of the deposited data

Results flagged for a closer look

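In Idh1-WT 1, 329 cell barcodes were also cells of Idh1-R132H 1 with at least 5 times the UMIs, a signal in barcodes outside the cells compared. Their median was 2.16% of the UMIs found under the same barcode in Idh1-R132H 1, and the 332 cells removed from Idh1-WT 1 by this rule had a median of 581 UMIs. The other pairs of libraries shared 13 to 33 cell barcodes. The cause was not tested. Kept in, these cells changed no call on the 10 genes.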

How the results depend on the processing

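For single genes under another setting, direction and side of the threshold were kept in 713 of the comparisons of Idh1-R132H with Idh1-WT. They were kept in 330 of those between stages and 262 of the differences between stages in genotype effect. Values that were not called changed sign in 49, 4 and 19 of these 3 kinds, and no called value changed sign. Of the 10 genes, 1 was called in lymphoid-primed progenitors, but 0 with DESeq2 and 0 to 1 without each library. In the other 9 groups of cells 0 were called, against 1 with no filter and 0 to 2 without each library. In stem cells and in B precursors the range without each library was 0 to 1, in mature B cells 0 to 0, and at the 3 stage steps 5 to 5, 8 to 8 and 5 to 6. For the genotype effect between stages it was 0 to 0, 0 to 1 and 0 to 1, with Dntt called without Idh1-WT 1 alone. The Dntt difference in lymphoid-primed progenitors ranged over 0.23 to 0.67 in 15 settings and was called in 11, with adjusted p from 2.1e-05 to 1.00.

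Counts over all genes moved more. In stem cells 5 genes became 0 with DESeq2, 29 with no filter, 3 with the 5% highest doublet scores removed, 15 with clusters and 5 to 83 without each library. In lymphoid-primed progenitors 16 became 0 with DESeq2, 9 with a stricter gate and 6 to 24 without each library. In B precursors 4 became 10 with library totals (3 higher and 7 lower, against 3 and 1), 0 with DESeq2, 9 with no filter, 2 with at most 5% mitochondrial UMIs, 0 with the highest doublet scores removed, 13 with a stricter gate and 2 to 18 without each library. In mature B cells 22 became 37 with library totals, 0 with DESeq2, 4 with at most 5% mitochondrial UMIs, 40 with the highest doublet scores removed, 0 with clusters, 0 with a stricter gate and 5 to 52 without each library. In the other groups 122 became 54 with DESeq2, 417 with no filter and 155 to 455 without each library. Of stage calls, 1436 in lymphoid-primed progenitors against stem cells became 822 with DESeq2 and 1060 to 1245 without each library, and the other steps gave 1769 to 1935 and 1598 to 1670. The causes were not tested.

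The labels number the libraries 1 and 2 in both groups, but same-numbered libraries did not deviate together (correlations of 0.074 in stem cells, 0.011 in lymphoid-primed progenitors, -0.0018 in B precursors and 0.015 in mature B cells). With the replicate number as a block, none of the 10 genes was called between Idh1-R132H and Idh1-WT, and the Dntt difference in lymphoid-primed progenitors was 0.46 (SE 0.13, adjusted p 0.379 by edgeR). The block gave 21 genes in B precursors and 220 in the other groups, against 4 and 122. Clusters gave no lymphoid-primed class, so results on it were not run there. Non-cycling against cycling B precursors could be tested with clusters alone, where Ebf1 was higher by 1.30 (SE 0.10, 36.6% of 1714 genes called) and Ikzf1 and Tcf3 did not pass (0.52 and 0.03). Small groups limit depth: B precursors came from 21 to 44 cells per library, and Rag1 had 18 UMIs in all.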
